A study of Homo sapiens with 11 samples.

Results

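The JMJD1C binding sites of chromosome 10 in Kasumi-1 cells are described here along the length of the chromosome. They comprise 1831 of the 36191 peaks in the list of that library (5.06%, 95% exact Clopper-Pearson interval 4.84% to 5.29%). Members are all rows on chromosome 10 of hg19, placed by their summit in windows of 5 Mb. A stretch of 5.5 Mb from 38 Mb, around the centromere, is left out of the main numbers. Its 76 peaks, which bring the chromosome to 1907, are described separately.

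The series holds 11 ChIP-seq and input libraries from 4 acute myeloid leukaemia lines, Kasumi-1, HL60, NB4 and THP-1, with 1 library for each line and target. The library used here is Kasumi-1 chromatin precipitated with anti-JMJD1C serum, raised by the submitters against the N-terminal part of the protein. The labels name no treatment of the cells. With 1 library there is no spread between replicates, no test between groups was run, and every interval reflects counting error, or how peaks of this library spread.

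JMJD1C is a JmjC-domain protein of a family of histone H3 lysine demethylases. Kasumi-1 is an established line from an acute myeloid leukaemia, with the RUNX1-RUNX1T1 fusion. ChIP-seq peaks mark places where precipitated DNA piles up over its surroundings. The tags around a peak are a different quantity: they come from background precipitation and from open or copy-rich DNA nearby. The genes of JMJD1C itself and of the blood-cell homeobox factor HHEX are among those of chromosome 10. No annotation of hg19 was used here, so sites are given by position and none is tied to a gene.

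Chromosome 10 carried many JMJD1C sites for the number of genes it holds. Over its span, peaks numbered 14.1 per Mb (exact Poisson 95% interval 13.5 to 14.8), against 12.5 (12.4 to 12.7) over the other 21 autosomes, a ratio of 1.13 (1.07 to 1.18). No stretch was left out of the other autosomes, here or in the comparisons below. All 1907 rows of chromosome 10 together gave 14.1 peaks per Mb, the 8th highest density of the 22 autosomes. A RefSeq gene table lists 734 protein-coding genes on chromosome 10, the 14th highest number among the autosomes. Peaks per coding gene were therefore 2.60 on chromosome 10, against 1.24 to 2.42 on the other 21 autosomes (median 1.90), the highest value of the 22. The value was 2.49 without the stretch around the centromere, and still the highest. The nearest others were chromosome 13 with 2.42 and chromosome 18 with 2.33, both gene-poor. No interval was computed for peaks per gene. Whether 2.49 and 2.42 differ by more than counting error was not tested. Peaks of every fold and score were counted, and the order of chromosomes at a higher minimum was not tested. The gene table is of assembly GRCh38.p14, and only the chromosome of each gene was taken from it. Gene-poor chromosomes and chromosome 10 differ in density, since chromosome 13 had 8.59 and chromosome 18 had 8.05 peaks per Mb.

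**Figure D1:**
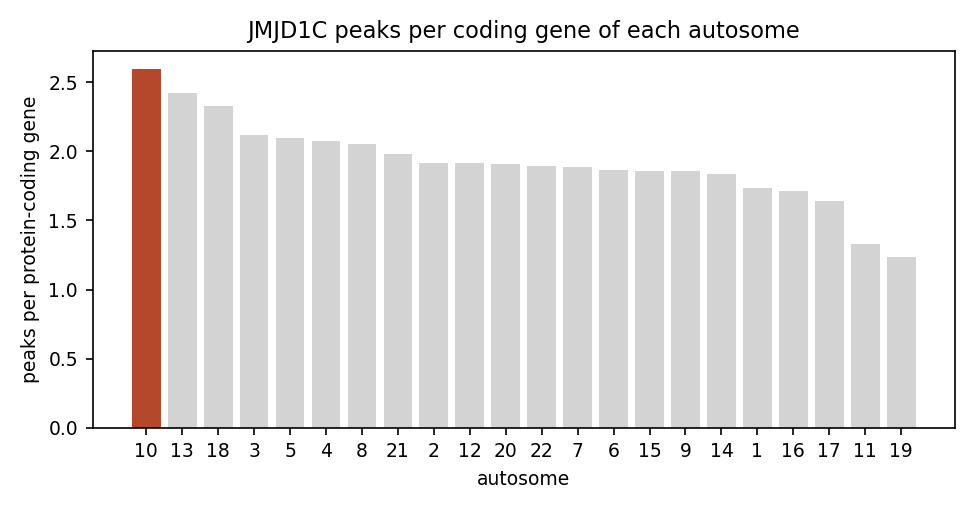
JMJD1C peaks divided by the number of RefSeq protein-coding genes (vertical axis) for each autosome (horizontal axis), in falling order, all peaks counted. Chromosome 10, in red, stands first with 2.60 peaks per gene, and chromosome 13 follows with 2.42.

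The peaks themselves were slightly longer and richer in tags than elsewhere, with a lower median fold. The median chromosome 10 peak was 504 bp long and held 34 tags (quartiles 19 and 65), against 480 bp and 30 tags (18 and 56) on the other autosomes. Fold enrichment, the ratio of summit to local background as given by the authors' peak caller, had a median of 10.54 (order-statistic 95% interval 10.26 to 10.79) against 10.82 (10.79 to 10.91). Of the chromosome 10 peaks, 1005 had a fold of 10 or more (54.9%, 52.6% to 57.2%), against 60.1% of the whole list and 59.9% of the other autosomes. Fold divides by the local background, and the signal around usable peaks was a median of 114 tags per 10 kb on chromosome 10, against 99.6 on the other autosomes, so these shares do not compare binding strength. At the weak end, where the score cutoff was 50, the score was under 60 in 290 peaks (15.8%), against 15.6% on the other autosomes.

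Sites were spread very unevenly along the chromosome. The 24 full windows of 5 Mb held between 1.20 and 30.8 peaks per Mb, with a median of 12.7. The densest was the window from 70 to 75 Mb, with 154 peaks (30.8 per Mb, exact Poisson 95% interval 26.1 to 36.1). The windows from 30 to 35 Mb, 100 to 105 Mb, 75 to 80 Mb and 95 to 100 Mb followed with 122, 119, 104 and 101 peaks. These 5 windows, picked for their counts and each 5 Mb of a span of 130 Mb, held 600 peaks, 32.8% of the members. On the sparse side, 55 to 60 Mb held 6 peaks and 65 to 70 Mb held 21. Thus the densest window and both sparse windows lie within 20 Mb of each other on the long arm. The short last piece beyond 135 Mb, only 0.525 Mb long, held 27 peaks.

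**Figure D2:**
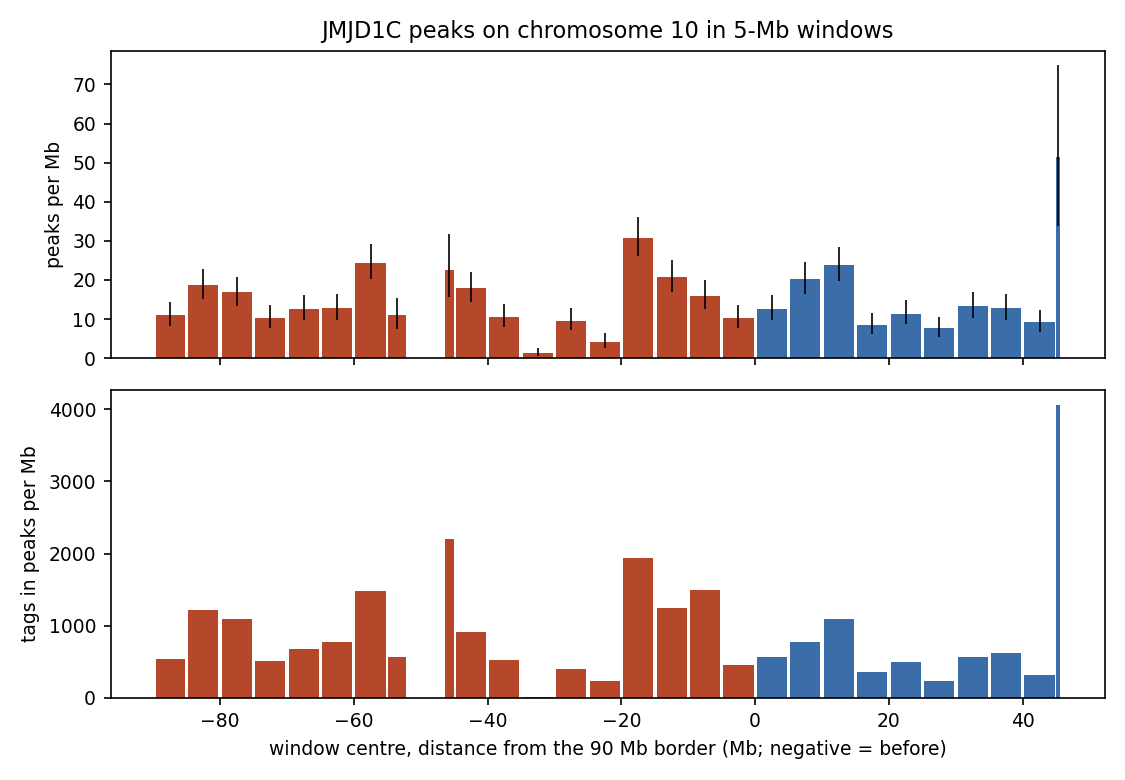
Peaks per Mb (top, with exact Poisson 95% intervals) and tags in peaks per Mb (bottom) in 5-Mb windows, by distance from the 90 Mb border in Mb; red is before and blue beyond the border, and bar widths follow the length counted. The window from 70 to 75 Mb stands at 30.8 peaks per Mb, and the narrow last bar is a piece of 0.525 Mb with 27 peaks.

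The densest full window had the lowest median fold, but a sparser window nearly matched it, and the densest short piece had one of the highest. The window from 70 to 75 Mb had a median fold of 9.16 and a fold of at least 10 in 37.0% of its peaks. The window from 60 to 65 Mb, with 48 peaks at 9.6 per Mb, had 9.165 and 33.3%, the lowest share of all windows. The short last piece, at 51.5 peaks per Mb the densest of all 28, had a median fold of 12, and the window from 125 to 130 Mb, with 64 peaks, reached 12.2 and 71.9%. Over all 28 windows the median fold ran between 9.16 and 12.2. Across these windows, which share 1 library, peak density correlated weakly with median fold (Spearman's rho 0.0937) and more with the signal around the peaks (rho 0.491). The second value includes tags of neighbouring peaks.

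Close neighbours were about as frequent as elsewhere. Another peak lay within 10 kb of 874 peaks (47.7%, exact interval 45.4% to 50.1%), against 49.7% in the whole list and 49.7% on the other autosomes. When peaks no more than 10 kb apart were joined, 1309 regions resulted. A single peak made up 957 of them, 336 had 2 to 4 peaks and 16 had 5 or more. These counts were not compared with those of other autosomes. The regions with the most peaks were small. One ran from 1089357 to 1116079 and had 7 peaks and 391 tags. Another ran from 98400595 to 98433618 and had 7 peaks and 336 tags, and the third, of 6 peaks and 810 tags, ran from 21784410 to 21824517. The last had the most tags of these 3 but a median fold of 7.76, against 8.12 and 13.5 in the others. The regions from 102792350 and from 106010194 also held 6 peaks each.

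Long stretches were empty of peaks. There were 17 of over 1 Mb on the chromosome, a number not compared with other autosomes. The longest, of 3.25 Mb, lay at the centromere, between 39151495 and 42397758, and whether tags can be placed there was not examined. The next were 2.67 Mb, from 106374359 to 109045193, and 2.53 Mb, from 109045539 to 111572086. Between these a lone peak of 347 bp held 25 tags (exact Poisson 95% interval 16.2 to 36.9) at a fold of 32.4, the 6th highest fold of the chromosome. The caller replaced its surroundings by the genome-wide floor, 73.7 tags per 10 kb, so its fold uses that floor. In all, 92 peaks (5.02%) had no other peak within 100 kb, against 5.97% of the whole list.

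The signal around the peaks can be recovered, since tags and score together give the expected number of tags in the 10 kb around each peak. The recovered number was whole, or at the floor the caller sets, for 1754 of 1831 peaks (95.8%). The surrounding signal was usable for 1751. The expected number over all 10 kb, the peak's own tags included, multiplied by fold and scaled to the fragment length gives the height of the summit in fragments. This height lay within 0.05 of an integer in 1740 of these 1751 (99.4%), where 10% of arbitrary values would. The score and the fold, which are separate columns, therefore rest on the same background in the deposited list. The main values use the 597 isolated peaks with no other peak within 20 kb, so that neighbours add no tags.

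Signal around the isolated peaks was higher before 90 Mb than beyond it. The median was 100 tags per 10 kb outside the peak before 90 Mb (order-statistic 95% interval 95.4 to 104, 396 peaks) and 74.2 beyond (71.3 to 78.5, 201 peaks), a ratio of 1.35 (1.22 to 1.46). The segment was chosen with this difference known, so it is a description. Other autosomes had a median of 77.6 (77.1 to 78.2), so the part before 90 Mb was 1.29 times that level (1.22 to 1.36) and the part beyond 0.957 times (0.912 to 1.02). At that floor, which makes the value an upper limit, were 21 of the 396 peaks before 90 Mb (5.30%) and 45 of the 201 beyond (22.4%). On the other autosomes the share was 17.1%. The highest of the 66 values at the floor was 66.2 tags per 10 kb, below the median of either segment, so lower true values would leave both medians as they are. Among peaks above the floor the ratio was 1.26. The list was called without an input, so more copies of the DNA and more precipitated chromatin cannot be told apart as sources of the difference.

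Both arms shared the higher level. The median was 96.7 tags per 10 kb (92.8 to 104, 190 peaks) before 38 Mb and 104 (95.5 to 107, 206 peaks) from the end of the stretch left out to 90 Mb. Of the 17 windows of 5 Mb before 90 Mb with at least 10 isolated peaks, all 17 had a median above 76.8, the median of 460 such windows on the other autosomes, and 15 were above their upper quartile of 83.9. Beyond 90 Mb 4 of 8 windows were above the median and 2 above the upper quartile, against 25% of windows elsewhere. The windows ran from 83.2 to 116 before 90 Mb and from 65.4 to 88 beyond, so the ranges overlap. The lowest of the first set was the window from 0 to 5 Mb, and the lowest of the second was that from 130 to 135 Mb. Leaving out each window in turn gave ratios between 1.33 and 1.39.

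**Figure D3:**
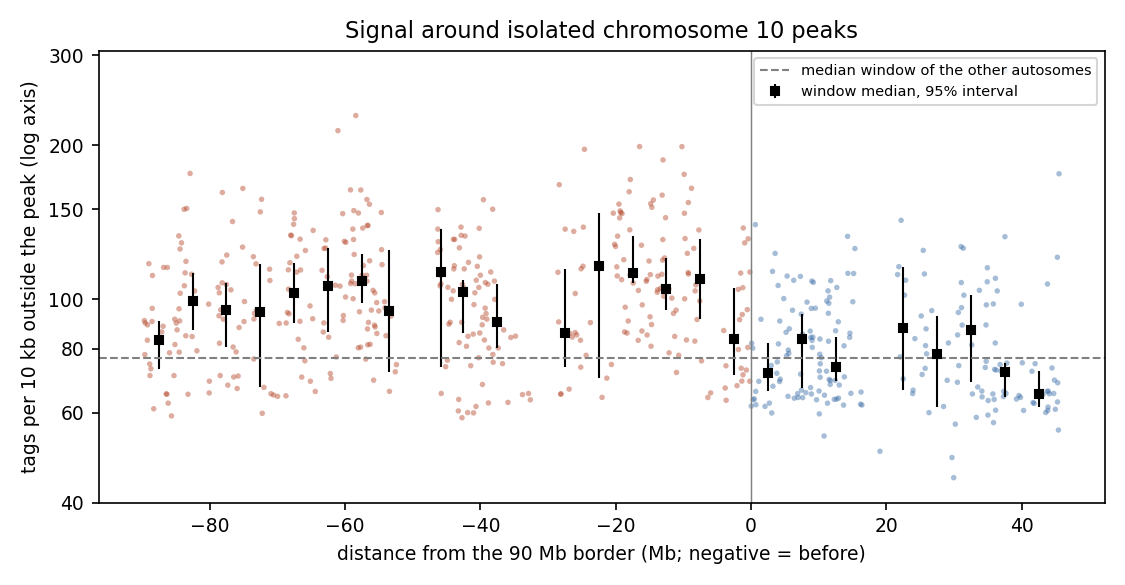
Tags per 10 kb outside each isolated peak (points, log axis) by distance from the 90 Mb border, red before and blue beyond, with medians and order-statistic 95% intervals of 5-Mb windows holding at least 10 isolated peaks (squares). All 17 window medians before the border lie above the dashed line, the median of 76.8 over windows of the other autosomes, and 4 of 8 lie above it beyond.

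The place of the border was not resolved, and a split at 90 Mb did not remove the most deviation. The split with the least absolute deviation of the isolated peaks fell between summits at 82.42 and 82.68 Mb. It removed 9.49% of the deviation from a common median, against 8.53% for a split at 90 Mb. All usable peaks, isolated or not, gave a split between 82.29 and 82.42 Mb. From 75 to 82 Mb the median was 111 tags per 10 kb (103 to 123, 42 peaks). Between 83 and 88 Mb peaks were scarce, 13 in all, and the 7 isolated ones had a median of 67.1 (63.5 to 86.9). That piece was chosen after its values were seen, and over 82 to 88 Mb the median was 74.1 (64.3 to 99.2, 11 peaks). Low values also occurred where peaks were scarce far from the border, with a median of 65.3 over the 4 isolated peaks from 55 to 60 Mb. From 88 to 90 Mb peaks were common again, at 20.5 per Mb, with a median of 93.4 (73.3 to 113, 17 peaks). Over the 15 Mb that follow it was 77.3 (70.4 to 83.1, 96 peaks). The interval over 88 to 90 Mb overlaps both that of 75 to 82 Mb and that of the 15 Mb beyond the border. The place of the change was not determined between 82 and 90 Mb.

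**Figure D4:**
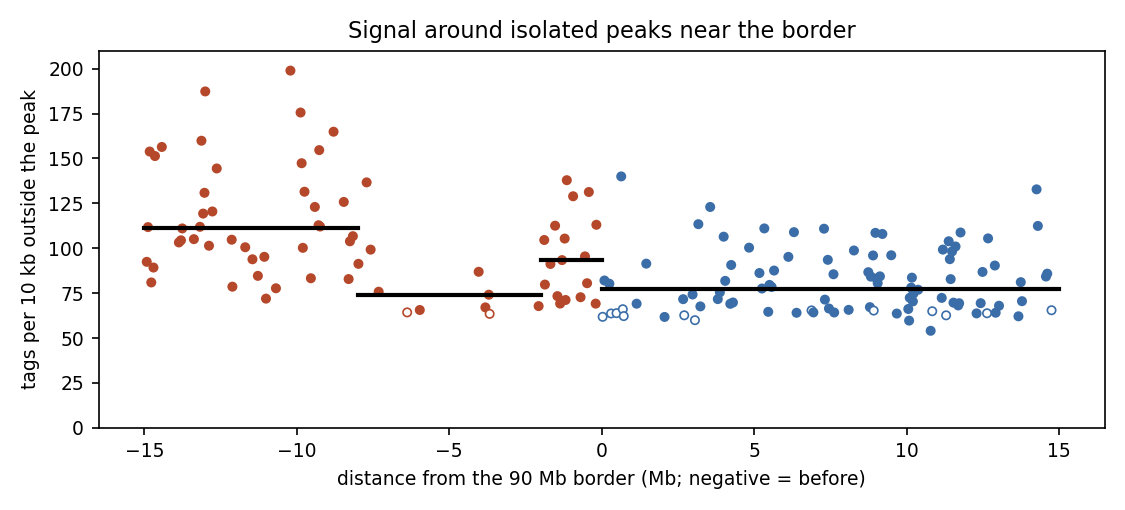
Tags per 10 kb outside each isolated peak from 15 Mb before to 15 Mb beyond the border at 90 Mb, red before and blue beyond; open points are at the caller's minimum and are upper limits, and black lines are medians of 75 to 82, 82 to 88, 88 to 90 Mb and the 15 Mb beyond. The lines stand at 111, 74.1, 93.4 and 77.3 tags per 10 kb.

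Steps of this size between adjacent windows occur on other autosomes. The medians of the windows from 80 to 85 Mb and from 85 to 90 Mb differed 1.31 times, and those of 85 to 90 Mb and 90 to 95 Mb 1.17 times. Of 383 pairs of adjacent windows on the other autosomes, 24 (6.27%) differed by at least the first and 90 (23.5%) by at least the second, with a median of 1.10.

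The ratio was 1.37 where peaks were common and 1.07 where they were scarce. Among isolated peaks with 10 or more other peaks within 500 kb the median was 106 tags per 10 kb before 90 Mb (312 peaks) and 77.6 beyond (148 peaks), a ratio of 1.37. With 5 to 9 such neighbours it was 85.4 (58 peaks) and 71.3 (39 peaks), a ratio of 1.20. With 0 to 4 it was 69.6 (26 peaks) and 65.3 (14 peaks), a ratio of 1.07. In that group 8 of the 26 peaks and 7 of the 14 were at the caller's minimum, which hides lower values. Whether the ratios differ between these groups was not tested. The number of peaks within 500 kb had a median of 18 for isolated peaks in both segments.

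Peaks were about as dense before the border as beyond it, while their size differed. There were 14.3 peaks per Mb before 90 Mb (1206 peaks) and 13.7 beyond (625 peaks), a ratio of 1.04 (0.945 to 1.15). The median peak was 536.5 bp long with 38 tags before 90 Mb, and 457 bp long with 27 tags beyond. Tags in peaks amounted to 858 per Mb before and 599 per Mb beyond, a ratio of 1.43. Among isolated peaks the median summit was 12 fragments high before 90 Mb (11 to 12) and 10 beyond (9 to 11), a ratio of 1.20 (1.0 to 1.33). The isolated peaks had a median fold of 10.9 before and 11.6 beyond. Peaks of at least 200 tags made up 3.65% before 90 Mb (44 peaks) and 1.76% beyond (11 peaks), against 2.47% in the whole list. Peaks of at least 20-fold made up 8.46% (102 peaks) and 8.64% (54 peaks), against 9.84% in the whole list. The caller needs more tags where the background is higher. For a peak of the median length of 504 bp at the median 10 kb background of the isolated peaks, the least number was 20 tags before 90 Mb, where that background was 126 tags, and 17 beyond, where it was 95.

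The strongest sites depend on the measure. The 10 peaks of highest fold had 25 to 138 tags and folds of 30.8 to 52.9, and the 10 with the most tags had 435 to 787 tags and folds of 9.48 to 23.6. No peak was in both lists (0 of 10). Unrelated lists of 10 among 1831 members would mostly share none either, so the 0 alone says little. By fold, 3 of the 10 lay before 90 Mb and 7 beyond. By tags, 7 of the 10 lay before it and 3 beyond, while 65.9% of all members lie before it. The fold divides by a 10 kb background that holds the peak's own tags. The 10 peaks with the most tags had a median fold of 15.2, against 10.54 over all members.

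Among the peaks of highest fold, 3 stood apart. The peak from 119940977 to 119941377 had a fold of 52.9, the 14th highest of the whole list, from 45 tags (exact Poisson 95% interval 32.8 to 60.2), with no other peak for 145 kb on either side. Its 10 kb held 88 tags in all, of which 51.1% were its own. The peak from 103124423 to 103124902 had a fold of 50.6 from 99 tags (80.5 to 121). The peak from 98561191 to 98561723 had a fold of 48.3 from 136 tags (114 to 161), 73.1% of the 186 tags in its 10 kb. The other 7 ranged from 30.8 to 34.1. They included a peak near the end of the chromosome, from 135413220 to 135413852, with 88 tags at a fold of 34.1, and the peak from 7614205 to 7614878 with 138 tags at a fold of 32.6. Of the 10, 8 had no other peak within 10 kb, while 47.7% of all members had one. With 10 peaks, whether this differs from the other members was not tested.

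The peaks with the most tags were broad, from 1242 to 3404 bp. The peak from 11219572 to 11222975 held 787 tags (733 to 844) at a fold of 9.72, in surroundings of 402 tags per 10 kb. The peak from 94449580 to 94452184 held 780 tags (726 to 837) at a fold of 15.1, with 133 tags per 10 kb around it. Their tag numbers differed by less than counting error. In the second, 88.8% of all tags in the 10 kb lay inside the peak, against 74.8% in the first. The peak from 135499343 to 135502582, close to the chromosome end, held 708 tags (657 to 762) at a fold of 9.48. The peak from 7549530 to 7550771 held 600 tags (553 to 650) in 1242 bp at a fold of 23.5. It had the highest summit of the members, 150 fragments, followed by the peak from 43912039 to 43914165 with 149 fragments and 528 tags. The others with the most tags began at 73507270, 81045250, 74078859, 104359208 and 7087843, with 567, 546, 532, 479 and 435 tags. No input was used, so binding at these sites cannot be told apart from repeats that gather tags.

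**Figure D5:**
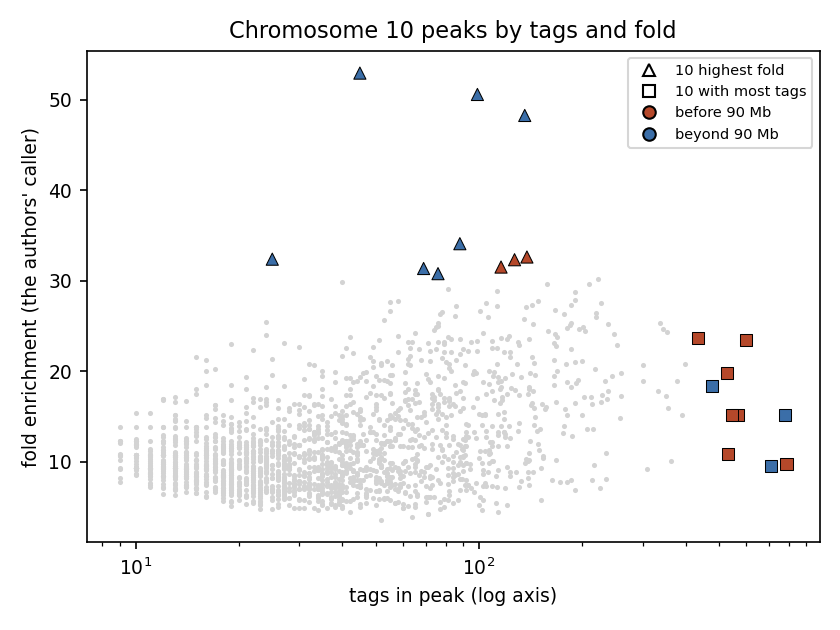
Fold enrichment as given by the authors' caller against tags per peak (log axis) for the 1831 peaks (grey); triangles are the 10 of highest fold and squares the 10 with the most tags, red before and blue beyond 90 Mb. The triangles lie between 25 and 138 tags and the squares between 435 and 787. No peak is in both lists, as is likely for unrelated lists of 10 among 1831 peaks.

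The 76 peaks in the stretch of 5.5 Mb around the centromere differed from the rest of the chromosome. They were 3.99% of its peaks and held 11% of its tags in peaks. Of them, 24 had a fold of 10 or more (31.6%), and the median fold was 8.98. The surrounding signal had a median of 373 tags per 10 kb over 72 usable peaks (range 75.8 to 2564), where all usable members had 114. These peaks stand close together, so neighbours add tags. The 7 isolated peaks of the stretch had a median of 108 tags per 10 kb (75.8 to 682). That of the isolated members was 90.8 (88.6 to 94.3). Before the peak-free stretch, 22 peaks with 1834 tags lay from 39076571 to 39151495, and 13 peaks with 1086 tags from 38776230 to 38818839. After it, the first peak, from 42397758 to 42401356, held 1767 tags (1686 to 1851) at a fold of 4.70. The peak from 42596648 to 42600877 held 2981 tags (2875 to 3090) at a fold of 6.20, the most of the chromosome. Keeping the stretch left the ratio of the surrounding signal before and beyond 90 Mb at 1.36.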

How the data were processed

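The deposited peak list of 1 library, Kasumi-1 JMJD1C ChIP-seq, was used; the other 10 libraries were not analysed here. Peaks were called with MACS 1.4.2 without a control, at a p-value cutoff of 1e-05, keeping 1 tag per position, with a fragment size of 88 bp and the local background from 10 kb, per the file headers. Bowtie2 2.1.0, HOMER and build hg19 are named in the submitters' processing notes. The library held 29330355 tags, 19897991 after filtering, per the file headers. Each deposited row gives a whole number of tags (a count), a score derived from the caller's p-value (its −log10, multiplied by 10), the fold enrichment, which is a ratio, and other columns with start, end, length and summit positions in bp, as the authors left them. Counts are not normalised.

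The expected tags of each peak were solved from its score and tags under the Poisson distribution, with the peak length (at least 176 bp) as window. Values within 0.05 of a whole number of tags, or within 0.15 of the minimum of 73.7, were used, for peaks of 176 to 5000 bp below the maximum score and with no more tags than their background. Tags outside the peak were scaled to 10 kb. Medians have order-statistic 95% intervals, ratios of medians the quotients of those bounds, shares Clopper-Pearson intervals, tag numbers and densities Poisson intervals, and the density ratios an exact binomial interval. Tags without molecular identifiers are not independent molecules. Members, segments and lists were chosen with earlier results of these data known. Sites named are the 10 of highest fold, the 10 with the most tags, the 3 regions of most peaks and the 3 longest peak-free stretches; others were named after their values were seen. The alternatives change the score or fold minimum, the border, the isolation, the neighbour distance and the stretch left out. No sequence is printed, since none of build hg19 was used here. Tools were SciPy 1.17.1, pandas 2.3.3, Matplotlib 3.10.9 and NumPy 2.4.6 under Python 3.11.15.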

Additional observations from a re-analysis of the deposited data

How the results depend on the processing

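Of 40 alternatives, 32 planned and the others chosen after seeing the data, 26 stayed within the main interval, or within 1.5 times the main count for numbers of peaks, and 14 moved out of it. With only peaks scoring above the median of the whole list, 939 peaks were left, at 7.23 per Mb and a median fold of 13.21. With a fold of at least 10, 1005 were left, at 7.74 per Mb and a median fold of 13.48. These follow from the smaller lists. The ratio of the surrounding signal before and beyond 90 Mb stayed above 1 in all 16 alternatives run on it. It left its interval at 1.07 with 0 to 4 other peaks within 500 kb and at 1.20 with 5 to 9, and the cause was not tested. The ratio of peaks per Mb, whose main interval includes 1, was 0.934 at a fold of at least 10, 1.20 among peaks scoring above the median and 1.16 with the border at the split of least deviation, and the cause was not tested. Neighbours were found for 18.3% of peaks at a distance of 2 kb and for 86.3% at 50 kb, and for 21% at 10 kb when only peaks of fold 10 or more were used. The smallest peaks held 9 tags, and no other sequencing depth was analysed. No paired analysis was possible because 1 library was analysed here.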

Other observations

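Summit height, recovered from fold and background, ranks the sites in another way. The 11 highest summits of chromosome 10, chosen after their values were seen and 3 of them tied at the lowest, stood at 101 to 150 fragments, with folds of 15.1 to 25.4. Of these 11 peaks, 6 were among the 10 with the most tags and 0 among the 10 of highest fold. With lists this short among 1831 members, the 0 alone says little. The 5 others were the peak from 11204809 to 11205723 with 109 fragments and 301 tags, the peak from 30315615 to 30317120 with 102 and 338, the peak from 74056843 to 74057989 with 101 and 354, the peak from 76498362 to 76499842 with 101 and 344, and the peak from 129862284 to 129863716 with 101 and 300.

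Among the 597 isolated peaks, summit height correlated with the signal around the peak (Spearman's rho 0.519). It was 0.604 before 90 Mb and 0.307 beyond. At the caller's floor, where the surrounding signal is an upper limit, were 5.30% of the isolated peaks before 90 Mb and 22.4% beyond. Whether the correlations differ was not tested. The points share 1 library, both quantities are recovered with the same background, and a higher background raises the least height that can be called.

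Besides the lone peak between the empty stretches of 2.67 and 2.53 Mb, the most remote members were the peak from 56236365 to 56236583, with 10 tags and its nearest other peak 890 kb away, and the peak from 67987038 to 67987289, with 11 tags and its nearest other peak 705 kb away. Both were at the caller's minimum background, with a fold of 10.79 and a summit of 7 fragments.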
